A study of Mus musculus with 16 samples.

Results

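Xdh, Btn1a1, Mfge8, Muc1, Muc15, Cd36 and Fabp3 are genes of the milk fat globule membrane and of fatty acid handling in the secretory cells of the breast. Their 7 rows were taken by gene symbol from the deposited expression table of 24187 rows. The study examined mammary glands of C57BL/6 mice and of mice of the Socs2-Δs line, which was made by CRISPR/Cas9 editing, and its title asks how cytokine-sensing genes respond to STAT5. Messenger RNA was sequenced in 7 of the 16 samples, and the other 9, of chromatin, were not analysed here. The wild-type group held 4 libraries of whole mammary tissue, taken from purchased mice on day 13 of pregnancy. The mutant group held 3 libraries of Socs2-Δs gland of the same day and of the same labelled strain. The labels do not give the bases altered in Socs2-Δs, its zygosity or the age of the mice. A genotype tag that calls the mutant RNA samples wild type goes against their titles, on which the groups rest. The labels do not say that each library came from a separate animal, and p-values therefore measure only how much these libraries vary.

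Milk fat leaves the alveolar cell as a lipid droplet that is wrapped in apical plasma membrane, the milk fat globule membrane. Butyrophilin (Btn1a1) spans that membrane and binds xanthine oxidoreductase (Xdh), and together with the droplet coat protein perilipin 2 they are held to join the droplet to the membrane; mice without butyrophilin or with less xanthine oxidoreductase secrete milk fat poorly. The mucins Muc1 and Muc15 are heavily glycosylated proteins of the same membrane, Mfge8 (lactadherin) coats its outer face, and Cd36 and Fabp3 take up and carry fatty acids. STAT5, the transcription factor activated by prolactin, drives alveolar differentiation in pregnancy, and Socs2 is a feedback inhibitor of JAK-STAT signalling.

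Values are FPKM, that is reads scaled to gene length and to library size, and differences are mutant minus wild type of log2(FPKM + 1). Reads recovered from the steps between low values amounted to 21.3 to 24.5 M (mega) per library. Socs2 itself measured 25.6, 22.1, 24.8 and 16.1 FPKM in the wild type and 17.1, 13.9 and 16.0 FPKM in the mutants. Its difference was -0.46 (limma adjusted p = 0.267) with overlapping groups, and -0.58 against wild-type replicates 1 and 2 (limma adjusted p = 0.0843). Transcripts of other tissues were high in some libraries of both groups. The summed level of 7 liver markers was 213.4 and 2074 FPKM in wild-type replicates 3 and 4 against 8.53 to 17.5 FPKM in the other 5 libraries, and that of 7 salivary gland markers was 442.8 and 245.0 against 45.8 to 86.5 FPKM. Cd79a, a B cell gene, was at 90.4 FPKM in wild-type replicate 4 and at 58.7 FPKM in mutant replicate 2, against 0.611 to 1.10 FPKM in the other 5 libraries, and the T cell gene Cd3e was highest in the same pair. The 7 genes were compared with all 4 wild-type libraries and again with wild-type replicates 1 and 2 alone. Mutant replicate 2 is in both comparisons. Calls without it are given for the 7 genes, the other membrane proteins and the mucin family, and not for the other lists.

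In the mutant gland 4 of the 7 genes were above every wild-type library, Xdh, Btn1a1, Muc1 and Fabp3, where 12.5% of all 13392 tested genes lay above without overlap. Fabp3 stood 19.0 times the wild-type mean, Xdh 3.57 times, Btn1a1 3.51 times and Muc1 2.46 times. Against all 4 wild-type libraries 0 of 7 passed limma's test (Benjamini-Hochberg adjusted p under 0.05 over all genes), and 0.0448% of all genes passed, each of them higher in the mutant. An unadjusted p under 0.05 was reached by 4 of the 7 and by 18.1% of all genes. Against wild-type replicates 1 and 2 alone, Xdh, Btn1a1, Muc15 and Fabp3 rose, 4 of 7, where 1.42% of 13276 genes rose, 0.716% fell and 2.14% passed in all. An unadjusted p under 0.05 was reached there by 5 of the 7 and by 20.2% of all genes. In that comparison 5 of the 7 lay above without overlap, as did 22.0% of all genes. The median difference of the 7 genes was 1.37 with all wild-type libraries and 1.18 with replicates 1 and 2, where the medians of all tested genes were -0.00 and 0.03.

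**Figure D1:**
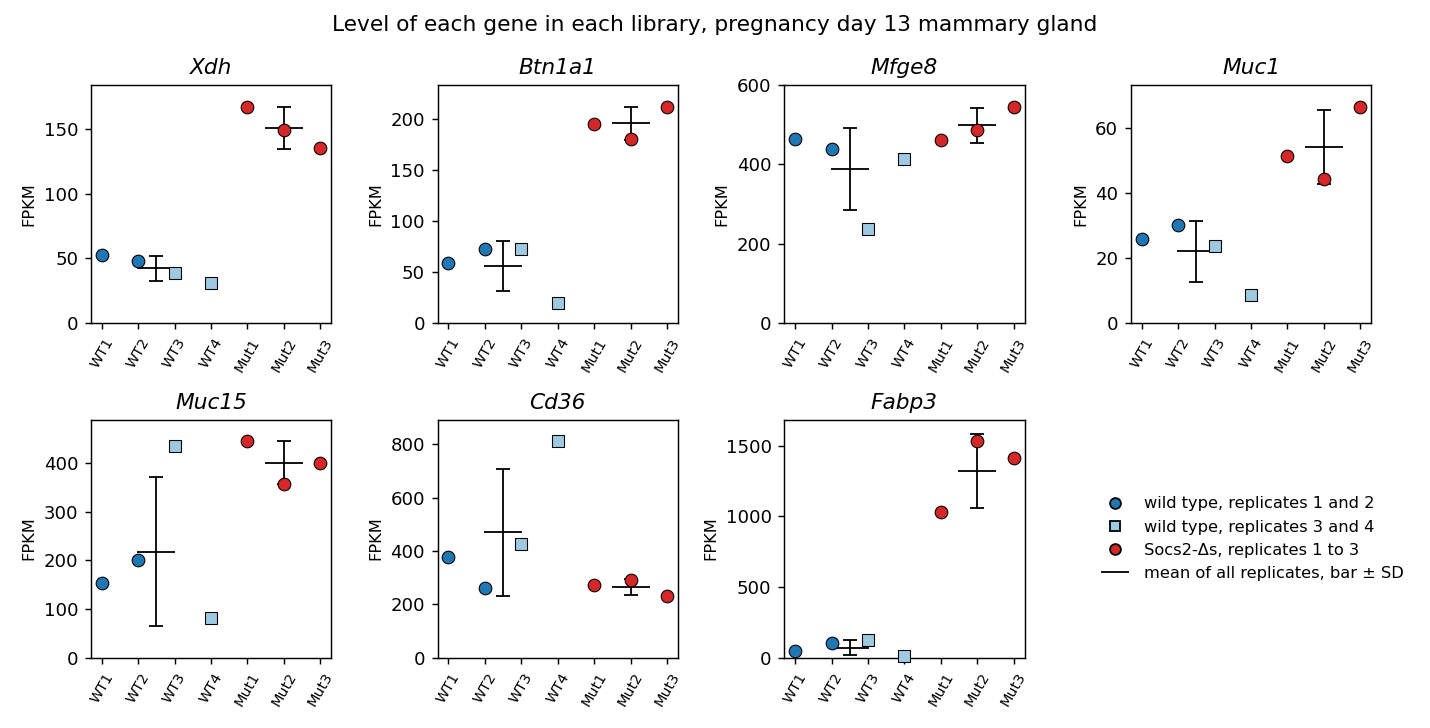
FPKM (vertical axis, linear, a scale of its own in each panel) of each gene in each library, with dark blue circles for wild-type replicates 1 and 2, pale blue squares for wild-type replicates 3 and 4, and red circles for the mutants; the horizontal line is the mean of all replicates of a group and the bar its SD. All 3 mutant points lie above all 4 wild-type points for Xdh, Btn1a1, Muc1 and Fabp3, and the groups overlap for Mfge8, Muc15 and Cd36.

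These calls depended on single libraries. Without wild-type replicate 4 the comparison with the remaining wild-type libraries called 3 of the 7, Xdh, Btn1a1 and Fabp3, among 31 of 13327 tested genes, with limma adjusted p-values of 0.0450, 0.0456 and 0.0371. Without mutant replicate 2 that comparison called 0 of 7 and 0 of 13379 genes. In the comparison with wild-type replicates 1 and 2, leaving out either of these, mutant replicate 1 or mutant replicate 2 left 0 of 7 called, where 2, 0, 25 and 8 of all genes were called. Leaving out mutant replicate 3 left 3 of 7, among 66 of 13353 genes. A wild-type group of 1 library is assumed to vary like the mutants.

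The RefSeq promoter table (GRCm38.p6) held 4 of the 7 genes, Muc1, Fabp3, Mfge8 and Cd36, which include a pair with mutant libraries apart from the wild type and a pair without. The 250 bases before each start are printed 5′ to 3′ along the gene, with matches to any of 5 short motifs on either strand in capitals. The motifs were TTCNNNGAA (the core of STAT5 sites), TATAAA (the TATA box), the box CCAAT, the GC box GGGCGG and AGAACA (the half-site of glucocorticoid receptor elements). Muc1 lies at chr3:89228806-89229055 (plus strand), Fabp3 at chr4:130308488-130308737 (plus strand), Mfge8 at chr7:79149061-79149310 (minus strand) and Cd36 at chr5:17835897-17836146 (minus strand).
Muc1: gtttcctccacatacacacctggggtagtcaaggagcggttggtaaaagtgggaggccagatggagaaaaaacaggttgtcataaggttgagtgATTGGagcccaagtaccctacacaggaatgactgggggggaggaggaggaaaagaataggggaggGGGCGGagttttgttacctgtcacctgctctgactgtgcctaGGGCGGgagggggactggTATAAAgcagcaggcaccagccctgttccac
Fabp3: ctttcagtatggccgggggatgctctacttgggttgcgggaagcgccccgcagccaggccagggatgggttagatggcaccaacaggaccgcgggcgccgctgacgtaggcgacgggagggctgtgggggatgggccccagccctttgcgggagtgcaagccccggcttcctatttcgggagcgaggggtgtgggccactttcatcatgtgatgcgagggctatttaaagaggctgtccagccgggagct
Mfge8: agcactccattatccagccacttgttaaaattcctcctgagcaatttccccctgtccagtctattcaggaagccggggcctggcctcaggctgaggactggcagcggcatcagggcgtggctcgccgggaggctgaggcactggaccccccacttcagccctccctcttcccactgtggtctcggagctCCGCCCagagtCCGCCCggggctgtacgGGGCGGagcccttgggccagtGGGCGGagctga
Cd36: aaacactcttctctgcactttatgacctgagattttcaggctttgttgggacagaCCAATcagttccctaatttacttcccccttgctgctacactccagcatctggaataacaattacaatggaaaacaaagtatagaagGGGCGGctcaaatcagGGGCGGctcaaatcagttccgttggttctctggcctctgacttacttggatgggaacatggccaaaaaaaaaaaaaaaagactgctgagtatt
TTCNNNGAA had a match in 0 of these 4 windows and in 7.02% of 32851 windows of the same length in the table, and AGAACA in 0 of 4 and 16.1%. Muc1 holds TATAAA from 31 to 26 bases before its start, a motif of 12.4% of windows. CCAAT lies in the windows of Muc1 and Cd36 and in 33.8% of all windows. GGGCGG lies in Mfge8, with 4 matches, and in Muc1 and Cd36, with 2 each, and in 32.7% of all windows. The Fabp3 window holds 0 matches to the 5 motifs; its GC content of 64.8% is close to the 65.2% of Mfge8, above the 54.8% of Muc1 and the 43.2% of Cd36. The median window of the table has 52.4%. A match describes the letters only, and none of these windows speaks of binding in the gland.

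Of the membrane complex, Xdh, which also catalyses the last steps of purine breakdown, measured 52.5, 47.6, 38.2 and 30.6 FPKM in wild-type replicates 1 to 4. In mutant replicates 1 to 3 it measured 167.5, 149.2 and 135.6 FPKM. The lowest mutant library lay 2.58 times above the highest wild-type one, and the wild-type libraries, including those with liver transcripts, lay within 1.71 times of each other. The means were 42.3 ± 9.75 (SD, n = 4) and 150.8 ± 16.0 FPKM (SD, n = 3), a difference of 1.83 with a standard error of 0.22 (limma adjusted p = 0.0666). By p it was the 7th of all tested genes. Against wild-type replicates 1 and 2 Xdh rose by 1.57 ± 0.14 (SE; limma adjusted p = 0.0165).

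Btn1a1 measured 58.8, 72.5, 72.4 and 19.9 FPKM in the wild type, with replicate 4 apart from the rest on the low side. The mutants held 195.2, 180.3 and 212.6 FPKM, all above the wild type. From 55.9 ± 24.9 (SD, n = 4) to 196.0 ± 16.2 FPKM (SD, n = 3), the difference was 1.95 ± 0.44 (SE; limma adjusted p = 0.141). Against replicates 1 and 2 it rose by 1.57 ± 0.16 (SE; limma adjusted p = 0.0211), so that Xdh and Btn1a1 moved by the same amount to the second decimal there. The ratio of Btn1a1 to Xdh in FPKM was 1.12, 1.52, 1.89 and 0.648 in the wild type and 1.17, 1.21 and 1.57 in the mutants, which lie within the wild-type range.

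Plin2, the droplet coat protein that completes the complex, measured 267.4, 420.9, 554.6 and 190.9 FPKM in the wild type. Its mutant values were 621.3, 938.7 and 1155 FPKM, all higher than any wild-type value. The difference of 1.40 did not pass (limma adjusted p = 0.185), nor did that of 1.38 against replicates 1 and 2 (limma adjusted p = 0.101).

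Among the mucins, Muc1, whose cytoplasmic tail also signals, measured 25.7, 30.2, 23.6 and 8.53 FPKM in the wild type. The mutants gave 51.4, 44.3 and 66.6 FPKM, above every wild-type library. From 22.0 ± 9.40 (SD, n = 4) to 54.1 ± 11.4 FPKM (SD, n = 3), Muc1 differed by 1.37 ± 0.40 (SE; limma adjusted p = 0.183). Against replicates 1 and 2 the difference was 0.91 ± 0.19 (SE; limma adjusted p = 0.0742). Wild-type replicate 4 lies well below its group, and its 390 reads give an exact 95% Poisson interval of 7.70 to 9.41 FPKM, which covers counting error only.

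Muc15 was the more abundant mucin, at 152.8, 200.5, 435.0 and 82.2 FPKM in the wild type and 444.6, 357.1 and 399.8 FPKM in the mutants. Wild-type replicate 3 reached the mutant range and lay above mutant replicates 2 and 3, and replicate 4 was the lowest of all. The spread of the wild type (217.6 ± 152.9 FPKM, SD, n = 4, against 400.5 ± 43.7, n = 3) left the difference of 1.13 ± 0.50 (SE) far from the threshold (limma adjusted p = 0.284). Against replicates 1 and 2 Muc15 rose by 1.18 ± 0.20 (SE; limma adjusted p = 0.0475, from 0.0317 to 0.296 over the alternatives). The ratio of Muc15 to Muc1 was 5.94, 6.65, 18.4 and 9.64 in the wild type and 8.65, 8.07 and 6.00 in the mutants, with wild-type replicate 3 apart on the high side.

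Mfge8, which bridges phosphatidylserine and integrins and helps phagocytes clear dying cells, was abundant in every library. It measured 464.7, 438.9, 236.8 and 412.6 FPKM in the wild type and 460.7, 487.6 and 545.6 FPKM in the mutants. Wild-type replicate 1 lay above mutant replicate 1, and replicate 3 was far below all others. The means of 388.3 ± 103.2 (SD, n = 4) and 498.0 ± 43.4 FPKM (SD, n = 3) differed by 0.40 (limma adjusted p = 0.449, 95% interval -0.28 to 1.08). With replicates 1 and 2 the difference was 0.14, with an interval of -0.30 to 0.57 (limma adjusted p = 0.722). That interval does not reach the differences fitted for Xdh and Btn1a1, although the genes were not tested against each other.

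Cd36, the fatty acid translocase, is also a gene of adipocytes, capillary endothelium and macrophages. It measured 376.1, 262.1, 427.6 and 810.7 FPKM in the wild type and 271.0, 290.0 and 232.0 FPKM in the mutants. It was the single gene of the 7 with a lower mean in the mutant (469.1 ± 238.0, SD, n = 4, against 264.3 ± 29.5, n = 3), and wild-type replicate 2 lay within the mutant range. The difference was -0.71 (limma adjusted p = 0.335, 95% interval -1.58 to 0.16), and -0.25 against replicates 1 and 2 (limma adjusted p = 0.573, interval -0.78 to 0.28). Without wild-type replicate 1 the latter was 0.01, of the opposite sign.

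The summed level of 10 adipocyte markers was 10825, 12821, 13575 and 23198 FPKM in the wild type and 3596, 5935 and 6840 FPKM in the mutants, with wild-type replicate 4 highest for these markers and for Cd36 alike. All 10 adipocyte markers had lower means in the mutant (median difference -1.45, and -1.10 against replicates 1 and 2). Cidec and Pparg, a droplet protein and the main adipogenic transcription factor, fell in the second comparison, by 1.73 and 0.85 (limma adjusted p = 0.0278 and 0.0365). With all wild-type libraries 0 of 10 passed, and 7 had an unadjusted p under 0.05. The 8 macrophage markers were also all lower, by a median of -0.82 and -0.45, at 385.7 to 757.3 FPKM summed in the wild type and 268.0 to 335.1 FPKM in the mutants; 0 of 8 passed limma's test in either comparison, and 8 and 5 had an unadjusted p under 0.05. Endothelial markers summed to 217.7 to 245.3 and 192.0 to 216.5 FPKM. No marker of these 3 lists was at 0 in any library. Relative to the mean log2 level of the adipocyte markers of the same library, Cd36 was 0.60 higher in the mutants, relative to macrophage markers 0.11 higher and relative to endothelial markers 0.56 lower, each with overlap of the groups. Against wild-type replicates 1 and 2 alone these differences of Cd36 were 0.91, 0.22 and -0.055. The part of these cells in the Cd36 values was not tested, and in whole gland fewer cells of a type and less RNA per cell cannot be told apart.

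Fabp3, the heart-type fatty acid-binding protein that is also made by lactating mammary epithelium, differed most. The wild type held 44.6, 100.9, 125.0 and 7.97 FPKM, and the mutants 1029, 1531 and 1411 FPKM. Even the lowest mutant library was 8.23 times the highest wild-type one. Wild-type values spanned a wide range of their own, with replicate 4 at 104 reads (exact 95% Poisson interval 6.51 to 9.65 FPKM). From 69.6 ± 53.1 (SD, n = 4) to 1324 ± 262.2 FPKM (SD, n = 3), the difference was 4.77 ± 0.84 (SE), the second largest of 13392 genes, at a limma adjusted p of 0.110. Against replicates 1 and 2 Fabp3 rose by 4.26 ± 0.38 (SE; limma adjusted p = 0.0165), 18.2 times in FPKM. Ranked by level in each library, Fabp3 moved from places 1457, 658, 734 and 7107 among 13392 genes in the wild type to places 54, 35 and 61 in the mutants.

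**Figure D2:**
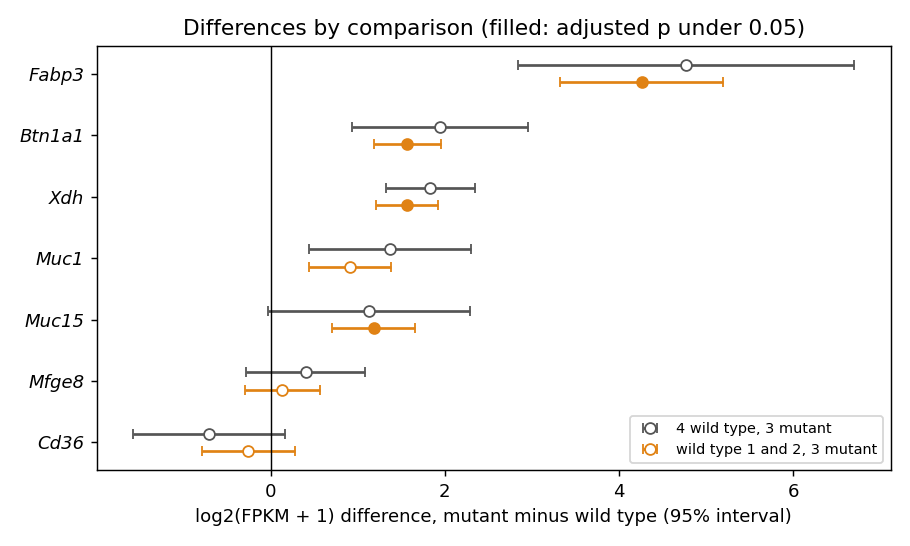
Difference of log2(FPKM + 1), mutant minus wild type (horizontal axis), of each gene with its 95% interval, in grey for all 4 wild-type libraries and in orange for wild-type replicates 1 and 2; filled points have a limma adjusted p under 0.05. The orange points of Fabp3 (4.26), Btn1a1 (1.57), Xdh (1.57) and Muc15 (1.18) are filled, no grey point is, and the intervals of Mfge8 and Cd36 cross 0.

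The order of the 7 levels was the same in all 3 mutant libraries. Fabp3 came first, followed by Mfge8, Muc15, Cd36, Btn1a1, Xdh and Muc1, and no gene overlapped its neighbour in that order. In the wild type the order by mean was Cd36, Mfge8, Muc15, Fabp3, Btn1a1, Xdh and Muc1, and neighbours overlapped except Xdh and Muc1. Mfge8 was the highest in wild-type replicates 1 and 2, Muc15 in replicate 3 and Cd36 in replicate 4. Summed over the 7 genes, the level was 1175, 1153, 1359 and 1372 FPKM in the wild type and 2619, 3039 and 3003 FPKM in the mutants. Fabp3 made up 3.79, 8.75, 9.20 and 0.581% of that sum in the wild type and 39.3, 50.4 and 47.0% in the mutants, so most of the gap between the groups is Fabp3. The ratio of Fabp3, which binds fatty acids inside the cell, to Cd36, which admits them, was 0.118, 0.385, 0.292 and 0.00983 in the wild type and 3.80, 5.28 and 6.08 in the mutants.

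Luminal epithelial markers were compared in the same libraries. All 12 had higher mean levels in the mutant, with a median difference of 0.50 (0.39 against replicates 1 and 2), and 0 of 12 passed limma's test in either comparison, with 3 at an unadjusted p under 0.05 in each. Esrp2, a splicing regulator of epithelia, had the smallest p (1.63, limma adjusted p = 0.183; 0.91 and 0.0632 against replicates 1 and 2). The 12 markers summed to 1297, 1540, 1892 and 828 FPKM in the wild type and to 1796, 1533 and 2296 FPKM in the mutants; the groups overlapped, replicate 4 was the lowest, and no marker was at 0 in any library. The 7 basal markers summed to 491.2 to 972.1 and to 851.5 to 1041 FPKM.

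Set against the mean log2 level of the luminal markers of the same library, Fabp3 stood at -0.59, 0.35, 0.59 and -2.19 in the wild type and at 3.38, 4.21 and 3.56 in the mutants. Xdh stood at -0.36, -0.72, -1.09 and -0.37 and at 0.77, 0.86 and 0.19. Btn1a1 stood at -0.20, -0.12, -0.19 and -0.97 and at 0.99, 1.13 and 0.84. For these genes and Muc1 the groups remained apart, with the mutants higher by 4.18, 1.24, 1.36 and 0.78. Against wild-type replicates 1 and 2 alone they were higher by 3.84, 1.15, 1.15 and 0.49. Muc15 was 0.54 higher, Mfge8 0.19 lower and Cd36 1.30 lower on that scale, each with overlapping groups. Against replicates 1 and 2 the differences of Muc15, Mfge8 and Cd36 were 0.76, -0.28 and -0.67. These relative levels were not tested, and the share of all genes apart on that scale was not computed. On the plain scale 12.5% of all tested genes lay above every wild-type library in the mutant.

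**Figure D3:**
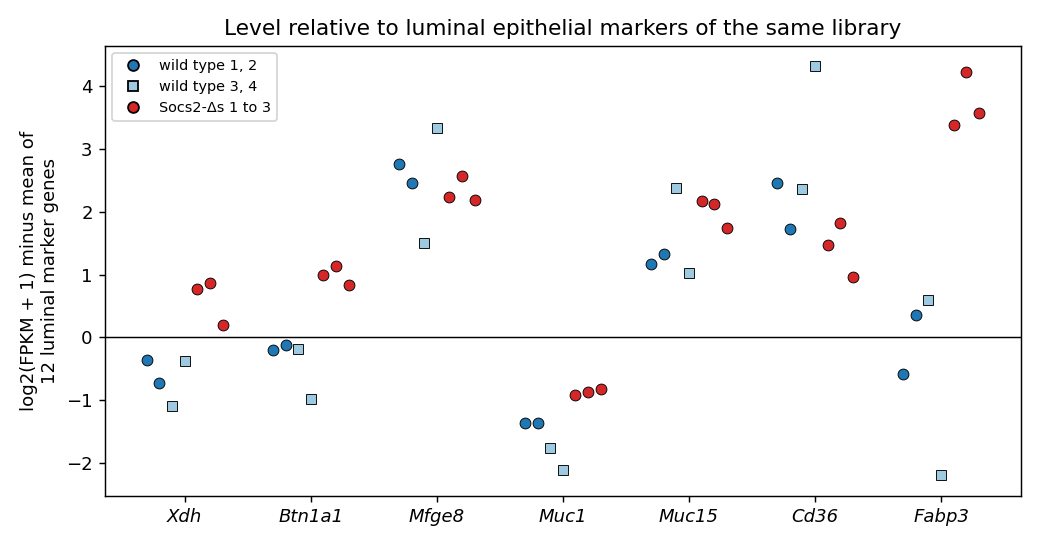
Log2(FPKM + 1) of each gene minus the mean of 12 luminal markers in the same library (vertical axis), by gene, with dark blue circles for wild-type replicates 1 and 2, pale blue squares for replicates 3 and 4, and red circles for the mutants. The mutant points lie above all wild-type points for Xdh, Btn1a1, Muc1 and Fabp3, and overlap with them for Mfge8, Muc15 and Cd36.

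Further proteins reported from the milk fat globule membrane were also compared. Of 22 tested, 0 passed against all 4 wild-type libraries, where 12 had an unadjusted p under 0.05, and against replicates 1 and 2 there were 7 rises and 0 falls by limma's test. The median difference was 0.12 and 0.44 in these comparisons. Those that rose were Pigr, the receptor that carries immunoglobulin A into milk (2.43, limma adjusted p = 0.0428), the milk protein kappa-casein Csn3 (2.21), the phosphate transporter Slc34a2 (1.95), the folate receptor Folr1 (1.90), the mucin Muc4 (1.61), the innate immune receptor Tlr2 (1.00) and the transporter Abcg2, which moves riboflavin into milk (0.77). Slc34a2 went from 2.80 ± 1.57 (SD, n = 4) to 14.5 ± 1.50 FPKM (SD, n = 3), and Pigr from 8.51 ± 4.63 to 54.3 ± 21.8 FPKM. At the other end were the annexins, membrane-binding proteins that many cell types express. Anxa1 measured 225.9 ± 59.4 and 106.5 ± 9.87 FPKM, without overlap of the groups, where 10.0% of all tested genes lay lower in the mutant without overlap. Its difference was -1.04 (limma adjusted p = 0.153), and -0.73 against replicates 1 and 2 (limma adjusted p = 0.0625). The count of calls in this list, 7, was 0 without wild-type replicate 1 or 2, 1 without mutant replicate 1 or 2 and 2 without mutant replicate 3.

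**Figure D4:**
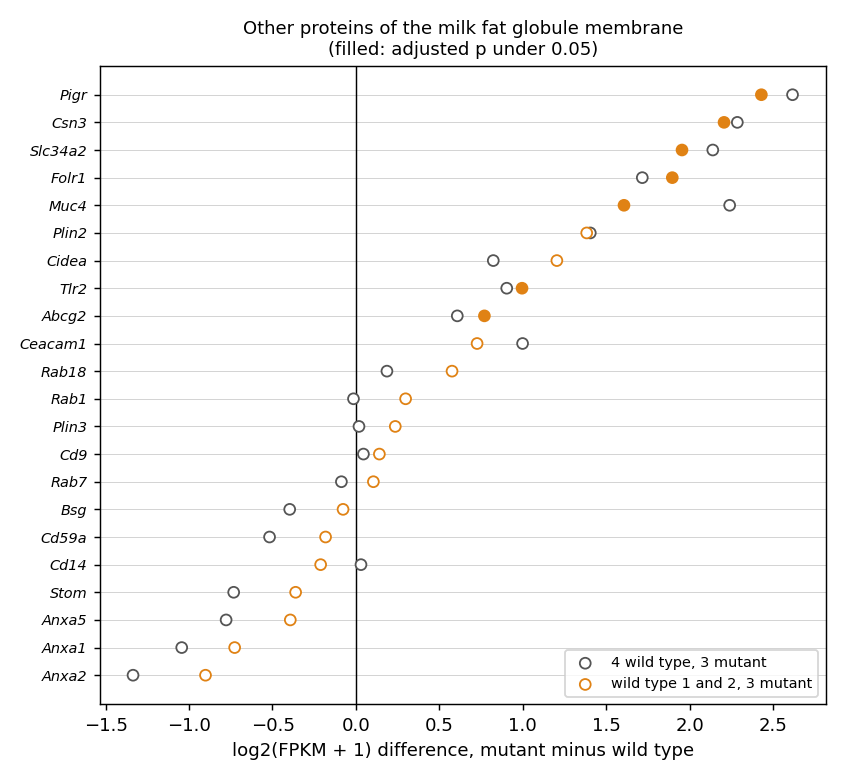
Difference of log2(FPKM + 1), mutant minus wild type (horizontal axis), of 22 other genes of the milk fat globule membrane, in grey for all 4 wild-type libraries and in orange for wild-type replicates 1 and 2, filled where the limma adjusted p was under 0.05. The 7 filled orange points are Pigr, Csn3, Slc34a2, Folr1, Muc4, Tlr2 and Abcg2, and the annexins lie lowest.

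Genes of fatty acid uptake and binding had a median difference below 0. Of 17 tested, 0 passed with all wild-type libraries, 8 had an unadjusted p under 0.05, and 2 rose and 0 fell against replicates 1 and 2 by limma's test (median -0.23 and -0.22). The 2 were acyl-CoA synthetases, which trap fatty acids in the cell. Acsl4 measured 14.0 ± 7.25 (SD, n = 4) and 41.0 ± 9.06 FPKM (SD, n = 3), a difference of 1.57 (limma adjusted p = 0.126). Against replicates 1 and 2, with a mean of 10.7 FPKM, it rose by 1.82 (limma adjusted p = 0.0211). Slc27a2 measured 1.00 ± 1.12 and 4.31 ± 0.62 FPKM, a difference of 1.55 (limma adjusted p = 0.158). Its wild-type values were 0.205, 0.308, 0.877 and 2.62 FPKM, and against replicates 1 and 2 it rose by 2.08 (limma adjusted p = 0.0120). Without wild-type replicate 1 or 2 or mutant replicate 1, 0 of these rises was left. Of 24 genes of milk fat synthesis 0 rose and 1 fell against replicates 1 and 2, Mlxipl, a glucose-responsive lipogenic transcription factor (-0.78, limma adjusted p = 0.0361). With all wild-type libraries the sign of Mlxipl turned (0.11, limma adjusted p = 0.913), with wild-type values of 19.6, 18.0, 4.35 and 5.21 FPKM and mutant values of 9.68 to 11.4 FPKM. In the synthesis list 0 passed with all wild-type libraries, where 7 had an unadjusted p under 0.05. The synthesis list had median differences of -0.18 and 0.07. Srebf1, the sterol regulatory factor of lipogenesis, measured 69.9 and 130.4 FPKM (0.94, limma adjusted p = 0.171; 0.69 and 0.113 against replicates 1 and 2), and Dgat2, which makes triglyceride, 302.9 and 100.7 FPKM (-1.50, limma adjusted p = 0.153; -1.28 and 0.0513).

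Relatives of the 7 genes varied by family. In the mucin family 6 members were tested, and Muc4, Muc15 and Muc20 rose against replicates 1 and 2, with 0 falls and 0 calls with all wild-type libraries (4 at an unadjusted p under 0.05); without any 1 of the 5 libraries 0 of the 3 were left. Of the butyrophilin family, Btn2a2 and Btnl9 were the other tested members, and neither passed limma's test (0.93 and 0.69, limma adjusted p = 0.167 and 0.286; 0.71 and 0.36, limma adjusted p = 0.139 and 0.578 against replicates 1 and 2). Of 10 tested genes of the molybdenum cofactor, which Xdh needs, and its enzymes, Xdh rose and no other passed against replicates 1 and 2; 5 had an unadjusted p under 0.05 with all wild-type libraries. Mocs1, which starts the synthesis of the cofactor, measured 12.9 and 24.7 FPKM (0.94, limma adjusted p = 0.160; 0.58 and 0.0625 against replicates 1 and 2). Of the fatty acid-binding family 0 of 8 tested genes passed with all wild-type libraries, where 4 had an unadjusted p under 0.05, and Fabp3 was the 1 of 7 tested that passed against replicates 1 and 2; the family's median was -0.69 and -0.36. The adipocyte protein Fabp4 measured 8524 ± 3905 (SD, n = 4) and 2957 ± 879 FPKM (SD, n = 3), a difference of -1.47 (limma adjusted p = 0.212; -1.10 and 0.195 against replicates 1 and 2). Fabp1, the liver form, was listed at 22.7 FPKM in wild-type replicate 3, at 205.5 FPKM in replicate 4 and at 0.558 FPKM or less elsewhere. Of 11 tested genes of the Mfge8 list, with its relatives and receptors, and of 3 in the Cd36 family, 0 passed limma's test in either comparison, where 3 and 0 had an unadjusted p under 0.05 with all wild-type libraries and 4 and 0 with replicates 1 and 2. Of the smallest p in the Mfge8 list were the receptor kinase Axl, which measured 38.9 ± 8.71 (SD, n = 4) and 22.3 ± 3.08 FPKM (SD, n = 3), and the integrin subunit Itgb3, at 5.70 ± 0.66 and 4.11 ± 0.52 FPKM. Pros1 ranked between them by p with all wild-type libraries (-0.69, limma adjusted p = 0.225). None of these genes overlapped between the groups, where 10.0% of all 13392 tested genes lay lower in the mutant without overlap. The differences of Axl and Itgb3 were -0.76 and -0.39 (limma adjusted p = 0.171 and 0.246) and, against replicates 1 and 2, both -0.49 (limma adjusted p = 0.128 and 0.113). The closest relatives of Cd36, the lipoprotein receptor Scarb1 and the lysosomal protein Scarb2, differed by 0.28 and -0.25 with overlap of the groups, and by -0.14 and -0.02 against replicates 1 and 2, where the sign of Scarb1 turned. Of 12 partners of droplet secretion 1 passed against replicates 1 and 2, Cidec, which fell (-1.73) and is also in the adipocyte list.

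Reads of overlapping and neighbouring genes were compared with those of the 7 genes. Ano3, which overlaps Muc15, was at 0.111 to 0.358 FPKM in all libraries. Zcchc17, which overlaps Fabp3, was at 17.5 to 33.0 FPKM with a difference of -0.42 (limma adjusted p = 0.326). It lay far below Fabp3 in the mutants and below it in wild-type replicates 1, 2 and 3. In wild-type replicate 4 Zcchc17 was the higher, at 33.0 against 7.97 FPKM. Without a stated use of strand the reads of such pairs cannot be told apart. The largest positive differences were those of Trim46 beside Muc1 (1.01, limma adjusted p = 0.198), Btn2a2 beside Btn1a1 (0.93) and Serinc2 beside Fabp3 (0.64). The largest negative ones were those of Gnai1 (-1.44) and Sema3c (-1.11) beside Cd36 and Fibin beside Muc15 (-0.94). None of the tested neighbours passed in either comparison.

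The 7 profiles were not alike. The root mean square difference between mean-centred log2(FPKM + 1) profiles over the 7 libraries was smallest for Btn1a1 and Muc1, at 0.330, and largest for Cd36 and Fabp3, at 3.12. Of all tested genes, those nearest to Xdh were the amino acid transporter Slc7a5 (0.164), the glycine-cleaving enzyme Gldc (0.201) and the phosphatase Dusp4 (0.214). Nearest to Btn1a1 were Ccdc64b (0.110), the co-regulator Cited4 (0.174) and the proton pump subunit Atp6v1c2 (0.179). The genes closest to Muc15 included Elf5, a transcription factor of alveolar cells (0.228), after Ogfrl1 (0.113) and Tnfsf13 (0.203), and those closest to Muc1 were Extl1 (0.106), Tjp3 (0.128) and Spns2 (0.160). Fabp3 lay farther from its nearest gene than the other genes did, on a measure that grows with the size of the changes compared. Its nearest genes were all of milk, the whey acidic protein Wap (0.591), Glycam1 (0.849) and osteopontin Spp1 (0.901). Mfge8 lay nearest to Tbc1d17 (0.0490), Nol6 (0.0720) and Hps1 (0.0733), and Cd36 to Slc2a13 (0.0851), Arhgap29 (0.0921) and Sulf1 (0.0950).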

How the data were processed

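Whole mammary gland was sequenced as poly(A) RNA with a TruSeq kit, per the labels' protocols, in 4 wild-type and 3 mutant libraries. The authors deposited FPKM for 24187 rows. Per the submitters' processing notes the tools included STAR, Bowtie2, CASAVA and DESeq2, with no role or version, and the build was mm9; the sources used here do not give annotation or strand. Symbols of 39 rows were repaired through their Entrez ID. Whole reads were recovered (tolerance 0.02) for all 21044 rows above 0.

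FPKM were tested as log2(FPKM + 1) with limma 3.58.1 in R 4.3.3 (empirical Bayes with a mean-variance trend), where the mean over the compared libraries was 1 FPKM or more, with Benjamini-Hochberg adjusted p under 0.05 as the threshold. This scale understates changes of low genes. A count test was not the main test, since the deposited values are FPKM and the reads were only recovered from them. The procedure was also run on simulated data in which each gene varied independently between libraries. That simulation lacked the transcripts of other tissues seen in some libraries here and cannot show their effect on the calls. The 7 genes and all lists were chosen with earlier results of these data known. Of the list symbols, 5 of 225 were not found. Named were the 7 genes, up to 4 genes per related list and up to 3 per marker list of smallest p, lists with 5 or fewer calls in full, neighbours, and the 3 nearest profiles of each gene, predicted genes left out; the 7 called membrane genes, Plin2, Mlxipl, Fabp1, Fabp4, Cd79a and Cd3e were named after their values were seen where outside that rule.

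Alternatives were pseudocount, filter, scaling, array weights, the trend, a replicate block, a term for wild-type replicates 3 and 4, and leaving out each library.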

Additional observations from a re-analysis of the deposited data

How the results depend on the processing

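With all 4 wild-type libraries 0 of the 7 genes passed under each alternative except array weights, which called 5 (Xdh, Btn1a1, Muc1, Muc15 and Fabp3, among 1371 genes), and the fit without wild-type replicate 4; leaving out each library gave 0 to 3. The count without overlap ran from 4 to 5, where 12.5% of all genes lay above without overlap in the main fit. Against wild-type replicates 1 and 2 the count was 4, but 1 (Xdh) without a filter on low values, 3 with the replicate block and 0 to 3 when a mutant library was left out. The share of all genes called in the fit without a filter is not given here. The cause of the lower count without a filter was not tested. The difference of Cd36 turned from -0.25 to 0.00573 without wild-type replicate 1 and was -0.51 without replicate 2; the cause was not tested. Quantile normalization called Muc1 (limma adjusted p = 0.0387, from 0.0387 to 0.362 over the alternatives) in place of Muc15 (0.0560). The other 6 genes kept their direction under every alternative run. A fit that gave wild-type replicates 3 and 4 their own term passed 0 of 7.

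The labels give both groups replicate numbers but do not say that these pair animals. Deviations from the group means correlated by 0.35, -0.10 and 0.28 for numbers 1, 2 and 3. Between unlike numbers the correlations ran from -0.20 to 0.34, highest for wild-type replicate 4 with mutant replicate 2. As the labels state no pairing, none was assumed. With the replicate block 0 of 7 and 0 of all 13392 genes passed with all wild-type libraries, in which replicate 4 has no partner. Against replicates 1 and 2 the block left 3 of 7, Muc15 no longer among them (limma adjusted p = 0.0601). The share of all genes called in that fit is not given here. In the fit with all wild-type libraries the median difference of the 7 genes was 0.99 with the block. Depth limits little here, since the lowest value of the 7 genes rests on 104 reads.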

Other observations

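Skeletal muscle markers summed to 1034 FPKM in wild-type replicate 3 and to 58.6 to 259.2 FPKM elsewhere. Among the 7 genes of the milk fat globule membrane and fatty acid transport, wild-type replicate 4 was the lowest library for Xdh, Btn1a1, Muc1, Muc15 and Fabp3 and the highest for Cd36. Bhlha15, a secretory-cell transcription factor in the salivary gland list, measured 3.34 ± 2.18 (SD, n = 4) and 13.5 ± 3.63 FPKM (SD, n = 3), and passed in neither comparison. Its difference was 1.88 (limma adjusted p = 0.152), and 1.65 against wild-type replicates 1 and 2 (limma adjusted p = 0.0625). Amy1 of the same list fell against those replicates by 1.15 (limma adjusted p = 0.0361). It did not pass with all wild-type libraries (-1.54, limma adjusted p = 0.116).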
